A study of Mus musculus with 2 samples.

Results

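The collagen genes are the 44 genes, of 34290 in the deposited matrices, whose symbol is Col, a number, a and a number. All of them were taken by symbol and none by its level. By the polymers they build they fall into 11 fibrillar chains, 9 network chains, 7 chains of the type VI and XXVIII beaded-filament kind, 9 fibril-associated chains, 4 membrane-spanning chains, 2 multiplexins and 2 others. They were read in droplet-based single-cell RNA sequencing of tumours grown in mice from MC38, a mouse colorectal cancer line, 21 days after engraftment. Mice of one group were engrafted with vector control MC38 cells and those of the other with TMEM16F KO MC38 cells, and no mouse was treated. TMEM16F, the product of Ano6, is a calcium-activated phospholipid scramblase, and its deletion lay in the engrafted cells and not in the host. The samples are labelled as tumour tissue, while the series describes the cells as tumour-infiltrating lymphocytes, and how many mice gave a library is not stated in the labels. Each group was 1 library, so no difference between groups has a replicate check, and all intervals given are exact 95% intervals that cover counting error only.

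Collagens are triple-helical proteins that give the extracellular matrix its strength. Fibrillar chains are made as procollagens, hydroxylated and folded in the endoplasmic reticulum, trimmed outside the cell and cross-linked by lysyl oxidases, and fibroblasts are their main source in most tumours. Type IV chains form the sheet of basement membranes under endothelium and around mural cells. Type VI chains form beaded filaments at the cell surface, and fibril-associated collagens coat fibrils without forming them.

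The chromosomal arrangement of the type IV chains is shown first because Col4a1 and Col4a2 stand side by side in the values below. The start sites of Col4a1 (minus strand) and Col4a2 (plus strand) face each other on chromosome 8, and their annotated transcripts overlap by 22 bases at chr8:11312805-11312826 (GRCm38.p6, plus strand, the first exons of both genes, sequence from RefSeq). Capitals mark a GGGCGG box, the core of a GC box. The same head-to-head arrangement on chromosome 1 places Col4a4 and Col4a3 71 bases apart, at chr1:82586850-82586920, a stretch that holds no GGGCGG on either strand.
Col4a1 and Col4a2 overlap: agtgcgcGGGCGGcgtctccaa
Col4a4 to Col4a3 gap: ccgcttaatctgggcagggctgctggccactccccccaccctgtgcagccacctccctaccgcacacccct

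Col4a3 and Col4a4 had 0 UMIs in the stroma-like cells of both libraries, where Col4a1 and Col4a2 together had 65 and 194. The 250 bases upstream of Col3a1 (chr1:45311288-45311537, plus strand, no annotated exon) are shown because Col3a1 led the fibrillar collagens in 12 of the 20 fibroblast-like cells compared below. Capitals mark TATAAA, which begins 117 bases before the start site.
Col3a1 upstream: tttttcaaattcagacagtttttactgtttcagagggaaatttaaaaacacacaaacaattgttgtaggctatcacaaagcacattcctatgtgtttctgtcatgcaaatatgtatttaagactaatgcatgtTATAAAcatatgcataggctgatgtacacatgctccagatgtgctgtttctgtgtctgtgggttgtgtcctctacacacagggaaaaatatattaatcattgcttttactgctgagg

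A promoter entry was found for 35 of the 44 members, and Col1a1 was among the 9 without one. Searched on both strands of the 250 upstream bases, TATAAA was present in 5 of the 35 (12.4% of all 32851 windows), CCAAT in 13 (33.8%) and GGGCGG in 21 (32.7%). These are matches of letters, not binding sites.

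The vector control library gave 5028 kept cells and 43012160 UMIs, and the TMEM16F KO library 5688 cells and 45859868 UMIs, with median depths of 6019.5 and 5995 UMIs per cell. Levels are given as CPM, the UMIs per 1000000 UMIs of a library, class or cell. Ano6, which encodes TMEM16F, was read at 28.7 (27.1 to 30.4) and 33.3 (31.6 to 35.0) CPM over all cells. Most of these cells are leukocytes of the host, and 3′ counting can read a transcript disrupted further upstream, so this checks no label. The libraries shared 10 of 11246 cell barcodes.

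Collagen UMIs were rare and concentrated. The vector control library held 6097 of them, 141.8 (138.2 to 145.4) CPM, and the TMEM16F KO library 3639, 79.4 (76.8 to 82.0) CPM. The ratio of TMEM16F KO over vector control was 0.560 (0.537 to 0.583). Of the 44 members, 41 and 42 had at least 1 UMI. A single cluster of 99 vector control and 80 TMEM16F KO cells, called the stromal cluster here, held 88.2% and 79.2% of all collagen UMIs. That cluster made up 1.97% (1.60 to 2.39%) and 1.41% (1.12 to 1.75%) of the cells, and 5.70% and 2.37% of the UMIs, of its library. At the level of the library, fewer stromal cells and less RNA per cell cannot be told apart from a lower collagen level.

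Stroma-like cells were called from marker UMIs of fibroblasts, mural and endothelial cells, with no collagen among the markers. There were 21 in the vector control library, all called fibroblast-like, and 25 in the TMEM16F KO library, of which 17 were called fibroblast-like, 5 endothelial-like and 3 mural-like. All 46 lay in the stromal cluster. The fibroblast-like cells carried Bgn in 21 of 21 and 16 of 17 cells and Dcn in 19 and 13, both proteoglycans that bind collagen. Pdgfra, a receptor typical of fibroblasts, was seen in 10 and 3 cells and Lum in 1 and 3. Mural markers stood at 3480 and 1300 CPM in the fibroblast-like cells (10 and 6 of 12 detected), against 4497 and 6823 for fibroblast markers. Rgs5, a mural marker, had 43 and 0 UMIs there. The rule asked for no lead of fibroblast over mural or endothelial markers, so cells with both can be called fibroblast-like. All 12 epithelial or tumour markers had 0 UMIs in the fibroblast-like cells of both libraries. MC38 cells that lack these markers cannot be told apart from fibroblasts by these lists. Mononuclear phagocyte markers stood at 474 and 882 CPM there (11 and 10 of 12 detected), and the 3 mural-like cells carried 9340 CPM of neutrophil markers. The part of these transcripts in the collagen values was not tested.

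Within stroma-like cells the collagen level differed little between libraries. It was 8127 (7859 to 8402) CPM in the vector control, from 3484 UMIs, and 8306 (7878 to 8751) in the TMEM16F KO library, from 1412, a ratio of 1.02 (0.960 to 1.09). The cells varied far more than the libraries. Single cells ranged from 751 to 56547 CPM around a median of 4367 in the vector control, and from 640 to 79786 around 3593 in the TMEM16F KO library. The cell with most collagen held 1436 UMIs, 41.2% of the vector control sum, and its TMEM16F KO counterpart 373, or 26.4%. Without these 2 cells the levels were 5253 and 6285 CPM, a ratio of 1.20 (1.11 to 1.29). Over the whole stromal cluster they were 2192 and 2657, a ratio of 1.21 (1.16 to 1.27). The median depth of a stroma-like cell was 19707 UMIs in the vector control and 4675 in the TMEM16F KO library, and stricter marker rules gave a ratio as low as 0.671, so the direction is not settled by these libraries.

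**Figure D1:**
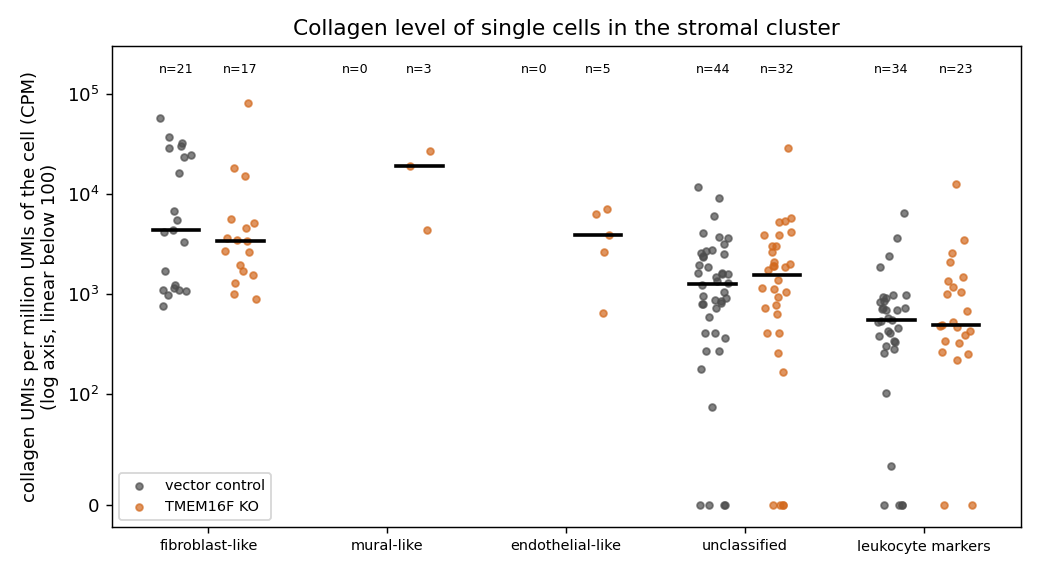
Each point is 1 cell of the stromal cluster, with collagen CPM of the cell on the vertical axis (log scale, linear below 100), by marker class and library, and black bars give medians. Fibroblast-like cells spread from 751 to 56547 CPM in the vector control and from 879 to 79786 in the TMEM16F KO library, and mural-like and endothelial-like cells were called only in the TMEM16F KO library (3 and 5 cells).

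The stromal cluster also held cells that the marker rule left unclassified, 44 and 32, and cells classed as leukocyte-like, 34 and 23. Unclassified cells stood at 1322 (1245 to 1402) and 1853 (1735 to 1976) collagen CPM. Cells with leukocyte markers stood at 666 (620 to 713) and 1316 (1208 to 1431). One of these TMEM16F KO cells held 205 of their 549 collagen UMIs, or 37.3%. The median cell with leukocyte markers went the other way, at 539 CPM in the vector control and 488 in the TMEM16F KO library. The median unclassified cell stood at 1256 and 1544 CPM. The cells of both kinds were deep, with medians from 11202.5 to 32416 UMIs, and their phagocyte markers reached from 812 to 5472 CPM. Of the collagen UMIs of all leukocyte-like cells, 54.7% and 44.6% came from the 34 and 23 cells with leukocyte markers, so the leukocyte background is given without them too.

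Leukocyte-like cells carried 36.7 (34.9 to 38.7) and 29.7 (28.1 to 31.5) collagen CPM. Stroma-like cells stood 221-fold (208 to 235) above them in the vector control and 279-fold (258 to 302) in the TMEM16F KO library. Outside the stromal cluster, leukocyte-like cells had 17.2 (15.9 to 18.5) and 16.6 (15.4 to 17.9) CPM, which raised the folds to 474 and 499. Phagocyte-like cells had 18.1 and 17.4, T-like cells 13.6 and 14.3, and NK-like cells 16.0 and 11.7, while B-like cells had 0 collagen UMIs in 15 and 8 cells, which allows up to 51.3 and 173 CPM. By gene, 19 of 20 members past a minimum of 20 UMIs were at least 4-fold higher in stroma-like than in leukocyte-like cells of the vector control, where 9.74% of all genes were, and 18 of 19 in the TMEM16F KO library, where 10.6% were. The median member lay 6.87 and 7.72 higher on the log2 scale, against -0.03 and -0.24 for all genes. The others were Col11a2 in the vector control and Col20a1 in the TMEM16F KO library, each with 0 UMIs in the stroma-like cells of that library and under 1 CPM in leukocyte-like cells, a level below what a 0 in so few stroma-like cells can show. Against leukocyte-like cells outside the stromal cluster the counts were 19 of 20 (9.05% of all genes) and 17 of 18 (10.1%). Each vector control count of 19 includes Col20a1, which had 1 UMI in stroma-like cells, 2.33 CPM. Its level was 0.556 CPM in leukocyte-like cells and 0.573 in those outside the stromal cluster. The interval of the stroma-like level starts at 0.0591 CPM, below both, so for Col20a1 the call shows no difference. The minimum was set on the UMIs of both classes summed. Only 11 and 10 members reached 20 UMIs in leukocyte-like cells outside the stromal cluster, and 17 and 17 in all leukocyte-like cells. The other members passed the minimum through their stroma-like UMIs, which favoured a high call for them.

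In stroma-like cells 16 members reached 20 UMIs in the vector control and 14 in the TMEM16F KO library, while 20 and 21 had 0 UMIs. A 0 allows up to 6.998 and 17.6 CPM. The genes at 0 in both included the cartilage collagens Col2a1, Col9a1, Col9a2 and Col10a1, the hemidesmosomal Col17a1, and the kidney-enriched type IV chains Col4a3 and Col4a4. Fibrillar chains made up 74.2% (72.7 to 75.6%) and 63.0% (60.4 to 65.5%) of the collagen UMIs of these cells. Beaded-filament chains followed with 14.6% and 10.6%, and network chains with 4.51% (3.84 to 5.25%) and 15.7% (13.8 to 17.7%).

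Between libraries, 4 of 17 members past the minimum were at least 2-fold higher in TMEM16F KO stroma-like cells, against 9.99% of all genes, and 0 of 17 at least 2-fold lower, against 10.3%. The 4 were Col4a1, Col4a2, Col18a1 and Col14a1. With a stricter rule of 5 markers and a lead of 3, which left 14 and 16 cells, 4 members were higher and 8 lower by at least 2-fold. The share of all genes is not given for that rule, so these counts have no background and are not read as particular to collagens. Of the 17, 6 were higher and 11 lower, with a median of -0.39 on the log2 scale, against 0.01 for all 4185 genes. Without the top cell of each library the direction turned, with 10 higher and 7 lower and a median of 0.38, against 0.02 for all genes. Past 2-fold were 6 higher and 0 lower, against 11.4% and 10.3% of all genes. Over the whole stromal cluster Col4a1 and Col4a2 alone passed 2-fold, of 19 members, against 8.43% of genes higher and, with 0 members, 3.42% lower.

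Type I collagen is a heterotrimer of Col1a1 and Col1a2 chains and the main fibre of most connective tissue. Col1a1 had 1097 UMIs, 2559 (2410 to 2715) CPM, in vector control stroma-like cells and 250, 1471 (1294 to 1665), in TMEM16F KO ones, a ratio of 0.575 (0.499 to 0.660). Col1a2 had 568 UMIs, 1325 CPM, and 172, 1012 CPM, a ratio of 0.764 (0.640 to 0.907). Both were lower in the TMEM16F KO library, but Col1a1 came closer to equality in fibroblast-like cells alone (0.856) and in the whole stromal cluster (0.930), and Col1a2 reached 1.14 in fibroblast-like cells. Col1a2 was found in 9 of 21 and 6 of 25 cells, and Col1a1 in 19 and 16, at the unequal depths given above. Thinned to 2000 UMIs a cell, which left out 1 and 9 shallower cells, Col1a1 was found in 50% and 50% of cells. Col1a2 was then found in 40% (19.1 to 63.9%) and 25% (7.27 to 52.4%).

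Col3a1, which forms type III homotrimers in compliant tissue and early scars, went the other way. It had 638 UMIs, 1488 (1375 to 1608) CPM, in the vector control and 392, 2306 (2083 to 2546), in the TMEM16F KO library, a ratio of 1.55 (1.36 to 1.76). One TMEM16F KO cell held 164 of the 392 UMIs. Without the top cell of each library the ratio was 1.13 (0.964 to 1.33), an interval that spans 1. In the whole stromal cluster it was 1.64 (1.49 to 1.81), and among cells of at least 5000 UMIs 0.996.

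The type V chains, which start fibrils and set their width, were read at lower levels. Col5a1 had 212 and 135 CPM, Col5a2 329 and 241, and Col5a3 93.3 and 52.9. Their ratios of 0.637, 0.733 and 0.567 had intervals reaching above 1, and for Col5a2 the ratio turned to 1.41 without the top cells.

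The 3 type VI chains were seen in more vector control cells than most other members. Col6a1 stood at 457 (395 to 526) and 306 (228 to 401) CPM, from 196 and 52 UMIs. Col6a3, the long chain of the filament, stood at 455 and 376 CPM, and Col6a2 at 273 and 200. Col6a1 was found in 21 of 21 vector control and 12 of 25 TMEM16F KO cells. Thinned to 2000 UMIs a cell, it was found in 65% (40.8 to 84.6%) and 37.5% (15.2 to 64.6%), and these intervals overlap. In 3′ counts the CPM levels do not depend on transcript length. The ratios were 0.669 (0.483 to 0.912), 0.828 and 0.733, and all 3 lay between 0.864 and 1.14 in the whole stromal cluster.

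**Figure D2:**
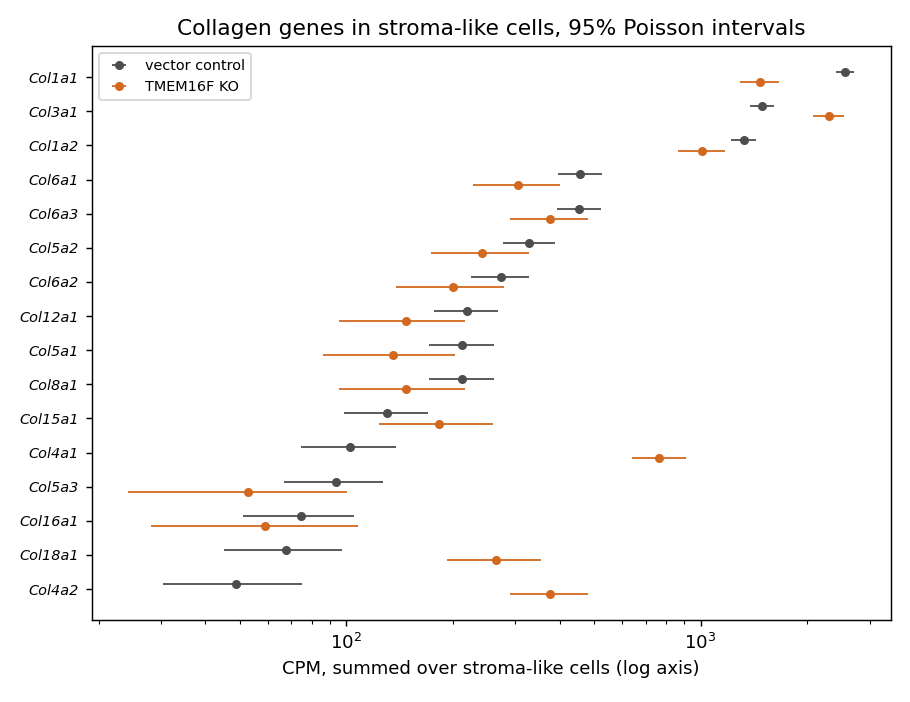
Level of the 16 collagen genes with at least 20 UMIs in stroma-like cells of either library, as CPM summed over 21 vector control and 25 TMEM16F KO cells (log axis), with 95% Poisson intervals. The fibrillar genes Col1a1, Col3a1 and Col1a2 lead, and Col4a1, Col4a2 and Col18a1 stand higher in the TMEM16F KO library.

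Among fibril-associated chains, Col12a1, which decorates fibrils under tension, had 94 UMIs (219 CPM) and 25 (147). One vector control cell held 69.1% of its UMIs there, and the ratio of 0.671 became 2.03 (1.14 to 3.60) without the top cells. Col16a1 stood at 74.6 and 58.8 CPM. Col14a1 had 9 UMIs, 21.0 (9.60 to 39.9) CPM, and 19, 112 (67.3 to 175), a ratio of 5.32 (2.30 to 13.4), with 10 of the 19 in a single cell. Without the top cells it was 2.65 (0.908 to 7.90). Col8a1, a short network chain of vessel walls, had 91 and 25 UMIs, a ratio of 0.693 that became 1.49 without the top cells.

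The basement membrane chains Col4a1 and Col4a2 were higher in the TMEM16F KO library. Col4a1 had 44 UMIs, 103 (74.6 to 138) CPM, in the vector control and 130, 765 (639 to 908), in the TMEM16F KO library, a ratio of 7.45 (5.26 to 10.7). Col4a2 had 21 and 64 UMIs, 49.0 (30.3 to 74.9) and 376 (290 to 481) CPM, a ratio of 7.69 (4.63 to 13.2). One vector control cell held 32 of the 44 Col4a1 UMIs, and without the top cells the ratios were 25.5 (14.1 to 50.7) and 11.4 (6.23 to 22.6). Of the 130 TMEM16F KO UMIs of Col4a1, 104 came from the 5 endothelial-like and 23 from the 3 mural-like cells. The marker rule gave these classes 0 cells in the vector control, though fibroblast-like cells there carried mural markers. In fibroblast-like cells alone Col4a1 had 44 and 3 UMIs, a ratio of 0.271 (0.0539 to 0.846), and Col4a2 21 and 7, a ratio of 1.33 (0.476 to 3.24). Unclassified cells of the stromal cluster had 4 and 43 Col4a1 UMIs, in 3 of 44 and 7 of 32 cells, with 22 of the 43 in 1 cell, and 15 and 27 Col4a2 UMIs. The number of vascular cells and the library cannot be told apart. Among fibroblast-like cells, 2 of 17 members passed 2-fold higher (Col14a1 and Col3a1), against 6.42% of genes, and 2 lower (Col4a1 and Col5a3), against 12.7%.

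The 5 endothelial-like cells expressed a narrow set. Col4a1 stood at 2293 (1874 to 2779) CPM and Col4a2 at 1080 (799 to 1428), followed by Col18a1, the multiplexin whose end fragment is endostatin, at 573 (374 to 840), Col15a1 at 485 (304 to 734) and the membrane-spanning Col13a1 at 243 (121 to 434). The other 39 members had 0 UMIs, which allows up to 66.1 CPM, and this included Col1a1, Col1a2, Col3a1 and all type V and VI chains. The 3 mural-like cells carried 19 members, led by Col4a1 (23 UMIs), Col6a3 (18), Col3a1 (16), and Col1a1, Col6a1 and Col18a1 (14 each). In fibroblast-like cells Col18a1 was at 67.6 and 46.4 CPM, below the endothelial-like level, and its ratio of 3.91 over all stroma-like cells became 0.686 there. Col4a1 made up 67.7% (54.9 to 78.8%) of the UMIs of the type IV pair in vector control fibroblast-like cells, 68.0% (60.0 to 75.3%) in endothelial-like and 74.2% (55.4 to 88.1%) in mural-like cells. The intervals of these 3 shares overlap, but the first share rests largely on 1 cell. That cell held 32 of the 44 Col4a1 and 8 of the 21 Col4a2 UMIs, and the other vector control cells had 12 and 13. Col4a2 had more UMIs than Col4a1 in TMEM16F KO fibroblast-like cells. In unclassified cells of the stromal cluster Col4a1 and Col4a2 had 4 and 15 UMIs in the vector control and 43 and 27 in the TMEM16F KO library.

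**Figure D3:**
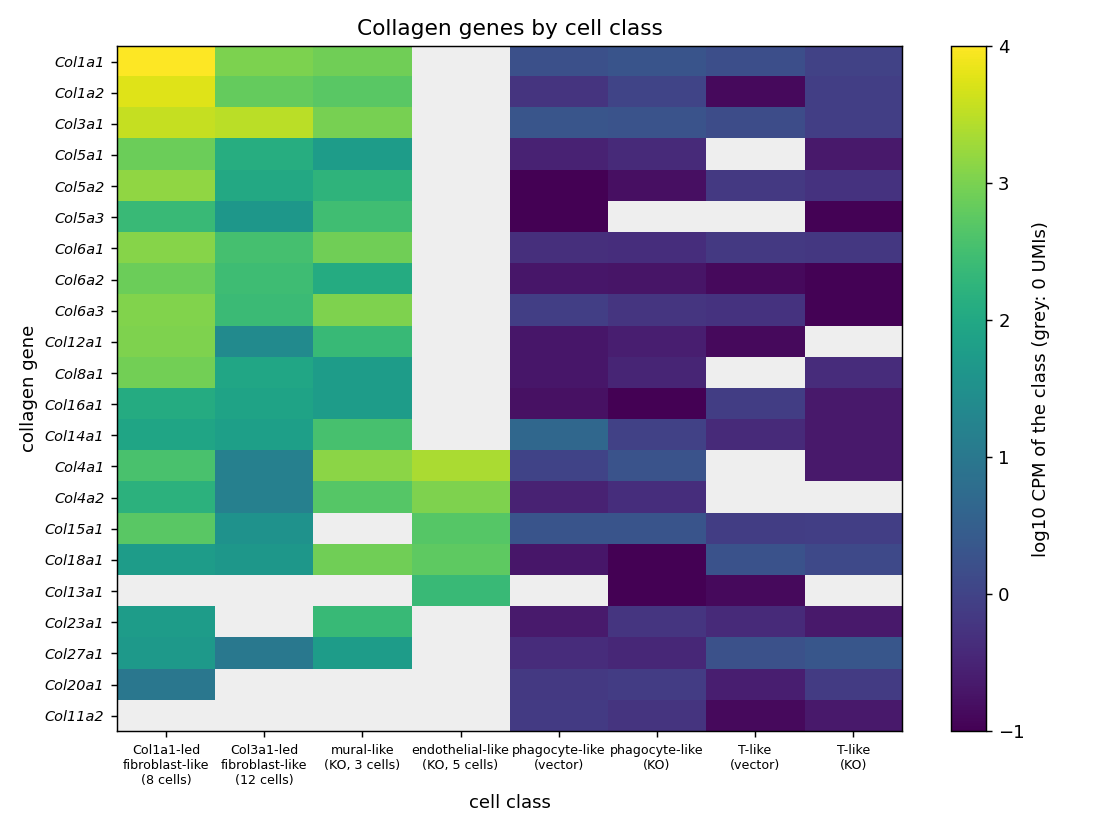
Level of 22 collagen genes (rows) in 8 cell classes (columns), as log10 CPM of the class, with grey for 0 UMIs. Endothelial-like cells are filled in 5 rows only, fibroblast-like columns carry the fibrillar and type VI genes, and the leukocyte columns stay near or below 1 UMI CPM in most rows.

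Fibroblast-like cells differed in which fibrillar gene led, a split made after the values were seen and described without a test. Of the cells with at least 10 UMIs of Col1a1 and Col3a1 summed, 8 had more Col1a1 (6 vector control and 2 TMEM16F KO) and 12 more Col3a1 (8 and 4). The remaining 18 had fewer UMIs or equal counts. Collagen stood at 29192 CPM in the Col1a1-led cells and 6238 in the Col3a1-led ones. Col3a1 itself differed little, with 3609 and 3008 CPM, while Col1a1 differed 10.4-fold, with 10671 and 1026. All 16 members past the minimum were higher in the Col1a1-led cells, 11 of them by at least 4-fold. The 16 include Col1a1 and Col3a1, which made the split, and the 11 include Col1a1. The share of all genes past these limits is not given for this split, so the counts have no background and are not read as particular to collagens. Without the top cell Col5a3 went from 5.37-fold to 3.11-fold and Col6a3 from 4.56-fold to 2.30-fold.

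Several genes other than collagens, named after their values were seen, differed between the same cells. Tagln, an actin-binding protein of contractile cells, had 750 UMIs and was found in 8 of 8 Col1a1-led cells, and had 0 UMIs in the 12 Col3a1-led cells, so it was at least 483-fold higher with a floor of 3 UMIs over the group. One cell held 528 of the 750. Acta2, smooth muscle actin, stood at 5224 and 171 CPM, a ratio of 30.5, or 10.7 without the top cell. Col12a1 was 42.5-fold higher (28.0 without the top cell), Col15a1 15.2-fold and Col5a2 14.1-fold. Of the matrix partners, periostin (Postn) was 12.6-fold, tenascin C (Tnc) 31.3-fold (20.8 without the top cell) and Mfap5 26.3-fold higher. Dcn stood lower, at 593 against 1499 CPM, a ratio of 0.396, or 0.615 without the top cell. Plod2, a lysyl hydroxylase, had 1 UMI against 28. Median depth was 7979 UMIs in Col1a1-led and 17172 in Col3a1-led cells.

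**Figure D4:**
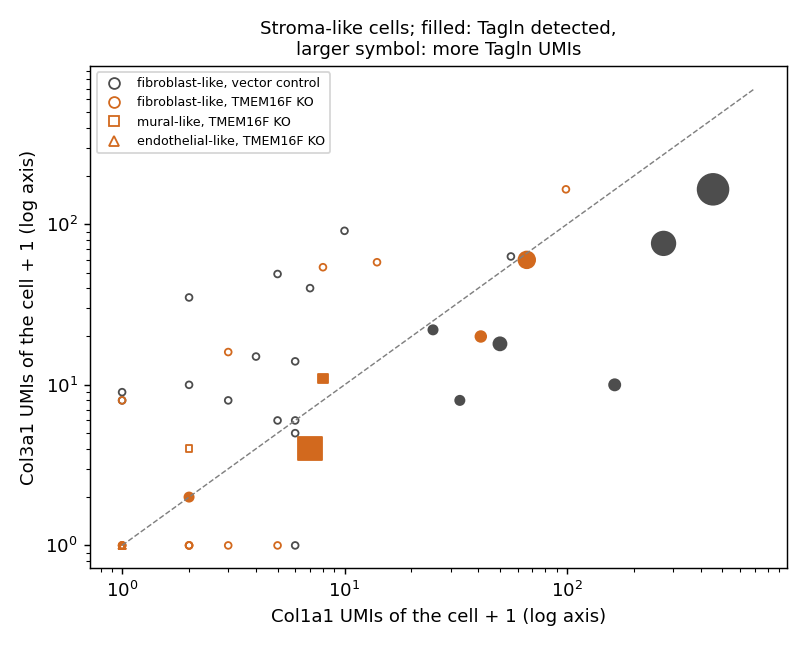
Each symbol is 1 stroma-like cell, with its Col1a1 UMIs plus 1 on the horizontal and Col3a1 UMIs plus 1 on the vertical axis (both log), coloured by library. Filled symbols had Tagln UMIs, size grows with them, and the 8 Col1a1-led fibroblast-like cells below the dashed line of equality are all filled.

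Of the genes that make and handle collagen, the lists differed in direction between libraries in stroma-like cells. Of 15 genes of prolyl and lysyl modification, 11 passed the minimum, and 7 of them were higher in TMEM16F KO cells and 4 lower, at a median of 0.11 on the log2 scale against 0.01 for all genes. Of 10 for folding and export, 7 passed, 5 higher and 2 lower, with a median of 0.11. Serpinh1, the collagen chaperone HSP47, stood at 1647 and 1918 CPM, from 706 and 326 UMIs, 416-fold and 1330-fold above leukocyte-like cells outside the stromal cluster. Hspa5, a general chaperone, stood at 725 and 753 CPM against 681 and 780 in those leukocyte-like cells, and Ppib, a prolyl isomerase, at 753 and 935 against 563 and 586. P4hb, the shared subunit of prolyl 4-hydroxylase, had, among genes of the modification list with at least 50 UMIs, the highest ratio at 1.44 (1.04 to 1.98), and P4ha2, a catalytic subunit, the lowest at 0.535 (0.277 to 0.962), with P4ha1, another catalytic subunit, at 0.593 (0.321 to 1.03). Kdelr2, which returns escaped chaperones to the endoplasmic reticulum, stood at 371 and 353 CPM (0.952, 0.695 to 1.29).

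For cross-linking enzymes, 4 of 5 genes passed the minimum and all 4 were lower in TMEM16F KO stroma-like cells, 3 by at least 2-fold, with a median of -1.48. The vector control cell with most collagen held 34 of the 66 Loxl1, 28 of the 48 Loxl2, 24 of the 41 Loxl3 and 13 of the 22 Lox UMIs. Without the top cells 2 of the 4 were higher and 2 lower, 0 of them past 2-fold, with a median of -0.36. Loxl1 had 66 and 14 UMIs (ratio 0.535, 0.277 to 0.962), Loxl2 48 and 5 (0.263, 0.0816 to 0.657), Loxl3 41 and 8 (0.492) and Lox 22 and 2 (0.229). Without the top cells these ratios were 1.03 (0.509 to 1.99), 0.590 (0.173 to 1.62), 1.11 (0.414 to 2.71) and 0.524 (0.0551 to 2.53), and all 4 intervals span 1. In the whole stromal cluster 1 of the 4 was higher and the median was -0.60, with Loxl3 at 1.35. The same 4 genes were from 9.12-fold to 13.5-fold higher in Col1a1-led than in Col3a1-led fibroblast-like cells, of which the libraries held 6 and 2 against 8 and 4. Without the top cell Loxl2 was 2.22-fold, Loxl3 7.10-fold and Lox and Loxl1 each 8.29-fold higher there. The part of that mixture in the values by library was not tested.

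Of 3 procollagen cleavage genes past the minimum, 1 was higher and 2 lower. Pcolce, an enhancer of C-propeptide removal, had 210 and 78 UMIs (490 and 459 CPM, ratio 0.937) and Bmp1, the protease, 33 and 10. Adamts2, which removes N-propeptides, had 13 and 15 UMIs, a ratio of 2.91 (1.29 to 6.64). Of 15 matrix partners past the minimum, 9 were higher and 6 lower, with a median of 0.15. Without the top cells 12 were higher and 3 lower, 6 of them higher by at least 2-fold (11.4% of all genes), with a median of 0.71 against 0.02 for all genes. Sparc, a collagen-binding glycoprotein, stood at 3226 and 5000 CPM (ratio 1.55, 1.42 to 1.69). Among genes of the list with at least 50 UMIs, Tnc had the lowest ratio, with 300 and 30 UMIs (0.252, 0.167 to 0.368), and the laminin chain Lamc1 the highest, with 39 and 31 (2.00). One vector control cell held 181 of the 300 Tnc UMIs, and the ratio was 0.594 (0.384 to 0.893) without the top cells. Fn1, fibronectin, stood at 532 and 518 CPM in stroma-like and 625 and 477 in leukocyte-like cells outside the stromal cluster.

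Of the collagen receptors, 3 passed the minimum and all were higher, with Itgb1 at 289 and 424 CPM (ratio 1.46, 1.08 to 1.97), Ddr2 at 1.39 (0.600 to 3.04) and the uptake receptor Mrc2 at 2.02 (0.862 to 4.62). Of 7 TGF-beta genes past it, 5 were higher and 2 lower, with a median of 0.75 that was -0.08 over the stromal cluster. Ccn2, a target of TGF-beta in fibroblasts, stood at 224 and 282 CPM (1.26, 0.872 to 1.80, or 3.90, 2.41 to 6.42, without the top cells), Smad7 at 86.3 and 147, and Tgfb1 at 63.0 and 106.

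In leukocyte-like cells the collagens had another composition. Outside the stromal cluster there were 659 and 681 collagen UMIs, of which fibrillar chains made up 34.4% and 38.8%, fibril-associated chains 29.1% and 14.98%, and multiplexins 13.1% and 12.5%. Col15a1 against Col1a1 was 59 to 50 UMIs in vector control phagocyte-like cells and 61 to 62 in TMEM16F KO ones, while it was 56 to 1097 and 9 to 236 in fibroblast-like cells. Other stroma-like cells, called only in the TMEM16F KO library, differed from these, with 22 to 0 in endothelial-like and 0 to 14 in mural-like cells. Col11a2 had 21 and 17 UMIs in phagocyte-like cells, 0.698 and 0.554 CPM, and Col20a1 had 20 and 24, 0.665 and 0.782 CPM. In stroma-like cells they had 0 and 0, and 1 and 0 UMIs, where a 0 allows up to 6.998 and 17.6 CPM, so no difference between these classes was detectable. Col27a1, a fibrillar chain of cartilage, had 13 and 20 UMIs in T-like cells. Col18a1 had 14 and 12 there, and 9 and 7 of those UMIs lay in the T-like cluster with Foxp3 at 228 and 218 CPM.

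Col14a1, a fibril-associated chain, was the leading collagen of vector control phagocyte-like cells. It had 142 UMIs in 104 of 3327 cells, 4.72 CPM, in the vector control, and 29 in 29 of 3316 cells, 0.945 CPM, in the TMEM16F KO library, a ratio of 0.200 (0.129 to 0.300). Thinned to 2000 UMIs a cell, the share of cells with a Col14a1 UMI was 0.840% (0.527 to 1.27%) and 0.208% (0.0763 to 0.452%), leaving out 708 and 430 shallower cells, against 3.13% and 0.875% unthinned. T-like cells, which had 0.270% and 0.131% unthinned at median depths of 5444 and 4808 UMIs, had 0.201% and 0.0720% thinned. It was the only one of 14 members past the minimum that was at least 2-fold lower in the TMEM16F KO library, against 1.87% of all genes, and Col23a1 (7 and 18 UMIs) was the only one at least 2-fold higher, against 3.11%. In the cluster with most Col14a1 UMIs it stood at 15.1 (11.4 to 19.7) CPM in 301 vector control cells and 2.52 (1.38 to 4.23) in 469 TMEM16F KO cells, and in another it stood at 6.13 in 428 and 0.692 in 578 cells. The libraries filled the phagocyte-like clusters unequally: 1 cluster held 538 vector control and 63 TMEM16F KO cells, with 22 and 1 Col14a1 UMIs, and another 233 and 64 cells, with 15 and 0. The part of this make-up in the value over all phagocyte-like cells was not tested.

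Phagocyte-like cells with a Col14a1 UMI carried more mannose receptor Mrc1, at 367 (339 to 397) against 205 (200 to 211) CPM in cells without one, and more Cx3cr1, at 179 against 78.5, and C1qa, at 6318 against 3355, in the vector control. In the TMEM16F KO library the values were 423 against 219, 121 against 23.3 and 6255 against 3188. They had 1 and 0 Col1a1 UMIs. These cells were also deeper, with medians of 15058.5 against 6587 and 12095 against 7454 UMIs, and the part of depth was not tested. Col4a1, at 31 and 58 UMIs (ratio 1.83, 1.17 to 2.94), was higher in TMEM16F KO phagocyte-like cells. Col3a1 (62 and 59 UMIs), Col15a1 (59 and 61) and Col1a1 (50 and 62) had intervals of the ratio that span 1.

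**Figure D5:**
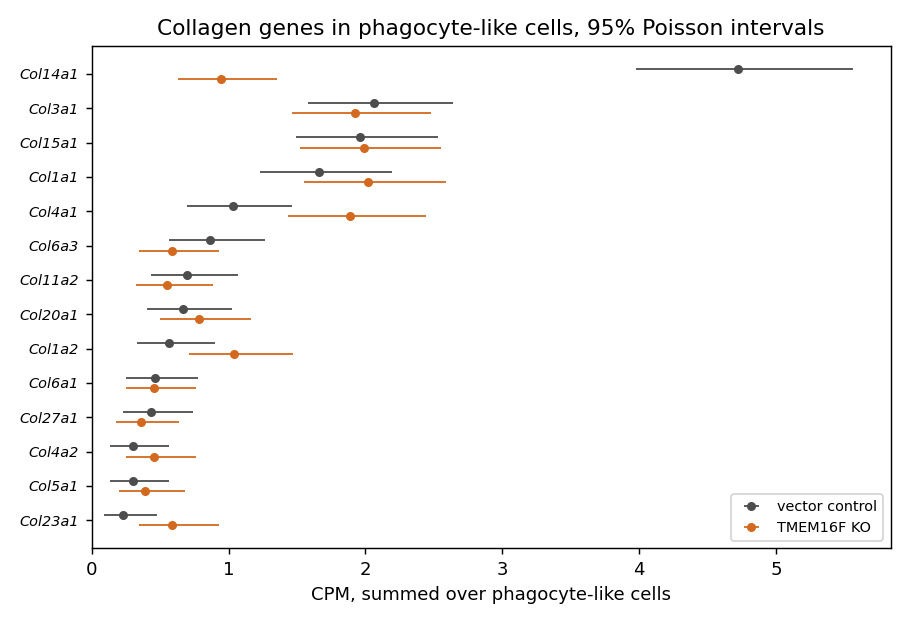
Level of the 14 collagen genes with at least 20 UMIs over both libraries in phagocyte-like cells outside the stromal cluster, as CPM with 95% Poisson intervals. Col14a1 stands at 4.72 in the vector control and 0.945 in the TMEM16F KO library, and the intervals of most other genes overlap.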

How the data were processed

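The authors deposited 1 matrix of raw UMI counts per library, and the headers name Cell Ranger 8.0.0. The submitters' processing notes name build mm10 and Seurat 3.1.1, and no source used here names the annotation. Gene positions are from GENCODE M21 and promoter sequences from RefSeq. Barcodes needed at least 200 genes and under 20% mitochondrial UMIs, which removed 4 and 18. The automatic threshold of Scrublet marked 0 in each library, so the highest scores were left out at 0.8% per 1000 barcodes (221 and 287). A class needed at least 3 of its 12 markers and a lead of 2 over other lineages, with fibroblast, mural and endothelial lists taken as 1 lineage. Clusters came from scanpy 1.11.5 (2000 variable genes without collagens, 30 components, 15 neighbours, Leiden resolution 1). Levels are summed UMIs as CPM, with Poisson, Clopper-Pearson and conditional binomial intervals, and the ratio code was tested on simulated data. No test was possible with 1 library per group. Named members had at least 20 UMIs in stroma-like or leukocyte-like cells of either library. Of each list the 3 with most UMIs and, from 50 UMIs, the highest and lowest ratio were named, and others were chosen after their values were seen. The members and lists were chosen with earlier results of these data known.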

Additional observations from a re-analysis of the deposited data

Results flagged for a closer look

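The ratio of Col14a1 between libraries pointed in opposite directions in 2 classes. It was 5.32 (2.30 to 13.4) for TMEM16F KO over vector control in stroma-like cells, from 9 and 19 UMIs, and 0.200 (0.129 to 0.300) in phagocyte-like cells outside the stromal cluster, from 142 and 29 UMIs. The difference itself was not tested, since each group is 1 library, and 10 of the 19 stroma-like UMIs lay in a single cell.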

How the results depend on the processing

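No paired analysis was possible because each group is 1 library. The planned classes from clusters gave no value, since no cluster had stroma-like cells as most of its classified cells; the stromal cluster, fibroblast-like cells alone, leukocyte-like cells outside the cluster, and the 2-fold count and gene lists without the top cells were chosen after seeing the data. The library ratio of 0.560 stayed within its interval in the 3 alternatives run. The stroma-like ratio of 1.02 became 0.671 with at least 5 markers and a lead of 3, 0.792 with at least 2 and a lead of 1, 0.891 in cells of at least 5000 UMIs, 1.20 without the top cells, 1.21 in the stromal cluster, 1.20 in fibroblast-like cells, 0.665 as a mean over cells and 0.810 thinned to 2000 UMIs. The fold of stroma-like over leukocyte-like cells, 221 in the vector control and 279 in the TMEM16F KO library, became 424 and 338 with the strict rule, 137 and 117 with the loose one, 189 and 219 from 5000 UMIs, 143 and 211 without the top cells, 128 and 160 with the stromal cluster as the class, 474 and 499 against leukocytes outside it, and 533 and 392 thinned. For the vector control it was 185 without doublet scores and 477 as a mean over cells. Of the 2-fold counts, 4 higher became 2 in the stromal cluster and 2 in fibroblast-like cells, and 0 lower became 8 with the strict rule, 2 with the loose one, 2 from 5000 UMIs and 2 in fibroblast-like cells. The share of all genes is not given for the strict rule, the loose rule and cells from 5000 UMIs, so those counts have no background. The share of Col14a1 in leukocyte-like collagen was 10.0% and 2.68%, and 22.0% and 4.55% outside the stromal cluster, with 8.32% in the vector control without doublet scores, and that of Col1a1 in the TMEM16F KO library went from 18.8% to 10.4% outside it. In fibroblast-like cells alone Col18a1 turned to a ratio of 0.686 and Col4a1 to 0.271, where the alternative leaves out the endothelial-like and mural-like cells. For the other changes the cause was not tested. Of 112 values of single genes, 75 stayed within their interval. Few stromal cells, 21 and 25, and single cells with up to 41.2% of the UMIs limit every stroma-like value.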

Other observations

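In vector control cells of the stromal cluster that carried leukocyte markers, Col1a1 had 57 UMIs and its partner chain Col1a2 had 0, while in the TMEM16F KO cells of the same kind they had 160 and 20. A single TMEM16F KO cell held 138 of these 160 Col1a1 UMIs, and 19 of the 20 Col1a2 UMIs lay in 1 cell. The contrast between libraries thus rests on single cells. Unclassified cells of the cluster had 153 and 48 in the vector control and 128 and 50 in the TMEM16F KO library. In fibroblast-like cells Col1a1 was 1.93 and 1.45 times Col1a2.

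The TMEM16F KO cell with most collagen had 373 collagen UMIs among 4675, the highest level of any stroma-like cell. It had 164 Col3a1, 98 Col1a1 and 0 Tagln UMIs.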
